A study of Homo sapiens with 21 samples.

Results

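The tumour suppressor p53 is a transcription factor that is stabilised when DNA is damaged or cells are otherwise stressed. It then switches on genes that stop the cell cycle, repair DNA, prepare cells for death or adjust metabolism, and MDM2, itself one of these targets, marks p53 for destruction. The p53 target genes followed here were a list of 31 such genes, of which 29 had a probe set assigned to a single gene symbol on the Affymetrix HG-U133 Plus 2.0 array. All 29 passed the filter on low values, among 12879 genes tested, and each was read from its brightest probe set. BTG2, an antiproliferative gene, and FDXR, a mitochondrial electron carrier, were not analysed here.

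The cells were HEY, a human ovarian cancer line, and 21 arrays fell into 7 groups of 3. Cells received mir-429 with a lipid transfection reagent and were collected at 24, 48 and 144 h. The matching cells received a negative control microRNA (labelled synthetic) with the same lipid and were collected at the same times. Untransfected cells were collected at 0 h and received neither lipid nor microRNA, so lipid, control microRNA and time in culture cannot be told apart in a comparison with them. Values are log2 RMA expression values of total RNA, on which a difference of 1 is a 2-fold change, and changes are given ± SE from a limma fit with n = 3 per group. A gene was called where its p, adjusted by Benjamini-Hochberg over all genes tested, lay under 0.05. Replicates are called biological in the labels without a description of the cultures, so a p-value here reflects only how far these samples scatter, which may be technical. In bulk RNA, fewer cells that express a gene and less RNA per cell cannot be told apart.

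mir-429 belongs to a microRNA family whose members share a seed, the bases that pair with target transcripts. The mature sequences of the transfected microRNA and of a pair of relatives, from RefSeq with GRCh38.p14, are shown because the seed (bases 2 to 8, in capitals) is identical in all 3. They lie at chr1:1169055-1169076 (+), chr1:1167160-1167181 (+) and chr12:6963742-6963764 (+), in the order printed.
hsa-miR-429: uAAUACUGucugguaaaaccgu
hsa-miR-200b-3p: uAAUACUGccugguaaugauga
hsa-miR-200c-3p: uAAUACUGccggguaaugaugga

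p53 binds DNA through pairs of short cores. RefSeq promoter windows, running from 250 bases before to 50 bases after a start site on GRCh38.p14, were matched for 25 of the 31 listed genes. They were searched for 2 cores of 4 bases with 6 bases between them. A core was CAAG or CTTG, or else either palindrome, that is CATG or the similar CTAG. This set is its own reverse complement, so a match is read on both strands. Of 40 windows of these genes 5 held a match (12.5%), against 1681 of 35116 windows of all genes (4.79%). The 5 matches are shown because these genes recur in the results below, with the cores in capitals. They lie at chr15:88621301-88621330 (+), chr10:88991304-88991333 (+), chr19:18386181-18386207 (+), chr6:109009013-109009042 (-) and chr12:120446335-120446361 (-), in the order printed. Their first core base lies at -31, -119, 32, -46 and 32 from the start site. A match describes letters and is no evidence of binding.
AEN: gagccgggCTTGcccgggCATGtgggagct
FAS: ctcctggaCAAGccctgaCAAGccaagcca
GDF15: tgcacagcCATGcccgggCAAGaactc
SESN1: cgtctggaCAAGtctccaCAAGtcagaaat
TRIAP1: gggggaggCATGcacggaCATGaagcg

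Array medians ran from 4.14 to 4.29, apart from 3.95 in replicate 1 of mir-429 cells at 144 h. The difference between 3′ and 5′ control probe sets of GAPDH and ACTB, larger where RNA is shorter or less fully copied, moved with the groups. At 24 h it was 2.54 to 3.25 in mir-429 arrays and 4.0035 to 4.43 in control arrays, without overlap. At 48 h mir-429 arrays gave 8.45 to 8.73 and control arrays 7.23 to 8.47, far above the 2.79 to 3.76 of untransfected arrays. At 144 h mir-429 arrays gave 3.22 to 3.49 and control arrays 3.38 to 4.32. Of 8 ovarian carcinoma and HEY markers, PAX8, WT1, KRT7, KRT8 and KRT18 lay above the array median in all 21 arrays, while MUC16 and EPCAM lay below it in all and KRT19 lay above it in 2. Among 9 measured leukocyte markers only LAPTM5 lay above the median in all arrays, and 5, including PTPRC, CD3E and MS4A1, lay below it in all. Of 10 endothelial markers, CDH5, TIE1, EGFL7 and ROBO4 lay above it in all, KDR in 19, CLDN5 in 17, ESAM in 13, PECAM1 in 3, TEK in 2 and VWF in 1. The mean level of the endothelial list was 5.48 to 5.52 in mir-429 and 5.73 to 5.81 in control arrays at 24 h, 5.32 to 5.46 and 5.58 to 5.68 in the same order at 48 h, and 5.84 to 6.27 and 6.01 to 6.07 at 144 h, with 6.05 to 6.22 in untransfected arrays. Its part in the results below was not tested.

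mir-429 cells and control cells differed in 16 of the 29 p53 target genes at 24 h, 11 higher and 5 lower. At that time 15.0% of all genes were called higher and 11.6% lower. The higher genes included the ceramidase ACER2, the kinase PLK2 and the phosphatase PPM1D, and the lower ones SESN1 and CCNG2. At 48 h, 7 were higher and 2 lower, beside 9.32% and 11.3% of all genes. At 144 h, 3 were higher and 1 lower, beside 1.48% and 4.37% of all genes. The median log2 change of the 29 genes was 0.13 at 24 h, 0.11 at 48 h and 0.07 at 144 h, against -0.02, -0.01 and -0.04 over all genes tested. In all, 19 of the 29 (65.5%) were called in a comparison with control cells at some time, beside 39.9% of all genes.

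**Figure D1:**
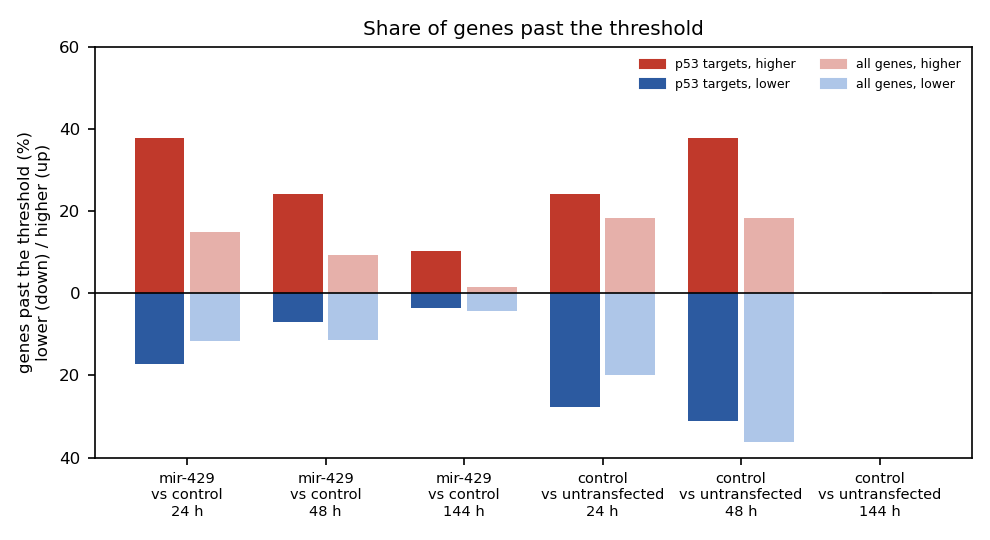
Percent of the 29 p53 target genes and of all 12879 genes tested that were called higher (bars upward) or lower (bars downward) in mir-429 against control cells and in control against untransfected cells at 24, 48 and 144 h. The bars of the p53 target genes stand for 11 higher and 5 lower at 24 h in mir-429 cells, 7 and 2 at 48 h, and 3 and 1 at 144 h.

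**Figure D2:**
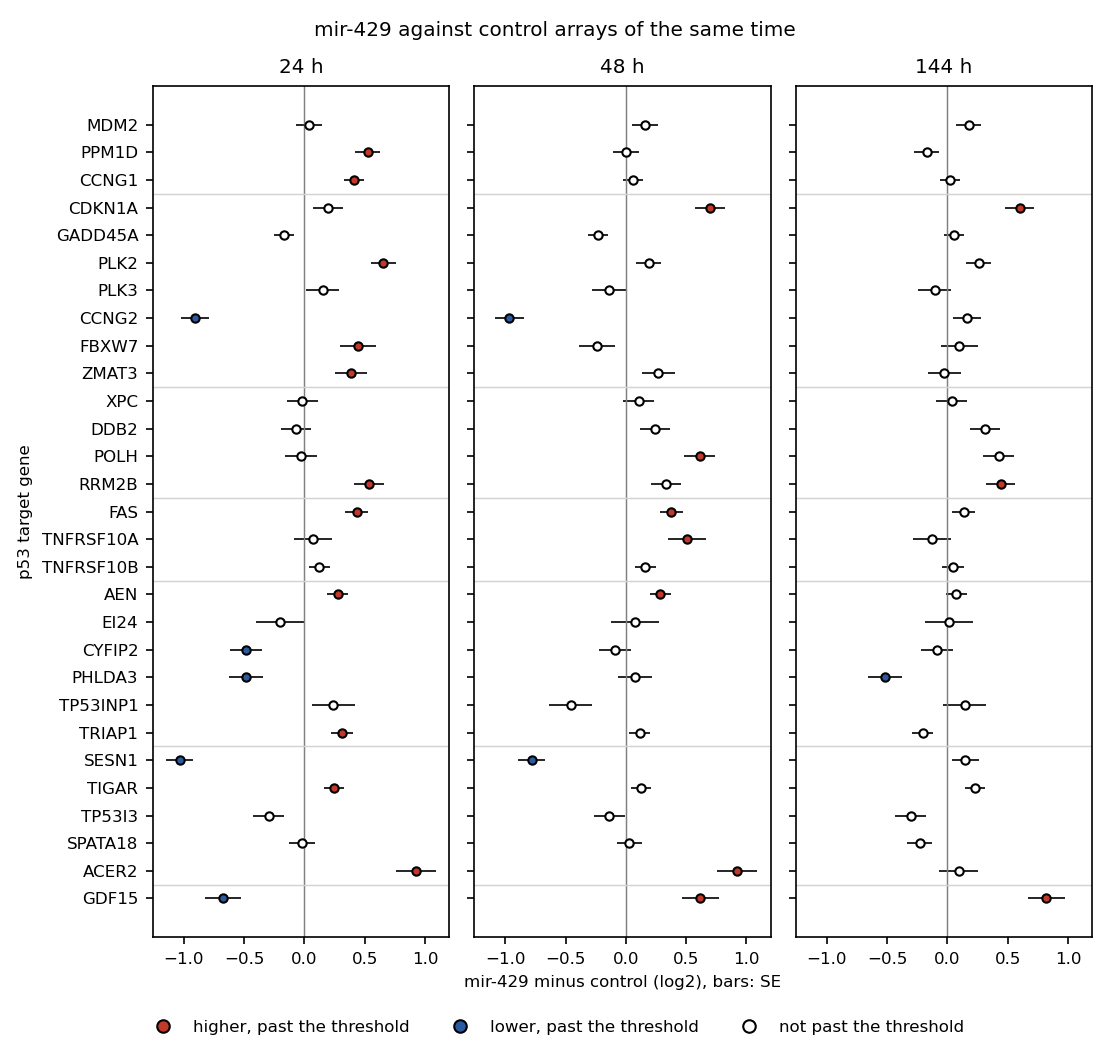
Log2 change, mir-429 minus control cells, of each of the 29 genes at 24, 48 and 144 h, with bars for the SE (n = 3 arrays per group) and filled points for calls. SESN1 and CCNG2 lie furthest below 0 at 24 and 48 h, and ACER2 lies furthest above it.

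The 24 h count was lower when the 3′ to 5′ difference of the arrays entered the fit. That difference did not overlap between the arms at 24 h, so its part in the count cannot be told apart from that of mir-429. With that difference as a covariate in the fit, 3 of the 16 calls remained (PLK2, CCNG2 and SESN1), and all 16 genes kept their direction. The median size of the 16 changes was then 0.41, against 0.48 without it, and their median SE was 0.17, against 0.12. The covariate fit called 4.77% of all genes at that time. All 9 calls at 48 h remained with the covariate, and at 144 h CDKN1A and GDF15 remained. The 24 h count was also 9 without mir-429 replicate 1, 10 without control replicate 3 and 17 without control replicate 2. These fits called 17.5%, 16.7% and 31.3% of all genes, in that order, against 26.6% with all arrays. The 144 h count was 2 without any of control replicates 1, 2 and 3 or mir-429 replicates 1 and 2, and 3 without mir-429 replicate 3. The fits with a count of 2 called 2.53% to 3.85% of all genes, and the fit with 3 called 5.12%. In every setting tried and with each array left out, the calls that held were PLK2, CCNG2 and SESN1 at 24 h (3 of 16), CCNG2, POLH, SESN1 and ACER2 at 48 h (4 of 9), and CDKN1A and GDF15 at 144 h (2 of 4).

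Among the feedback regulators of p53, PPM1D and CCNG1 were higher in mir-429 cells at 24 h and MDM2 was not called at any time. PPM1D, the phosphatase WIP1 that ends damage signalling, had log2 values of 8.42, 8.13 and 8.16 in mir-429 arrays at 24 h, against 7.75, 7.68 and 7.70 in control arrays. Every mir-429 array lay above every control array, a change of 0.53 ± 0.11 (adjusted p = 0.00137). Its other probe set differed by 0.02, and neither the mean of both (0.27, adjusted p = 0.0598) nor the fit with the 3′ to 5′ covariate (0.57, adjusted p = 0.0507) called the gene. At 48 h its values were 8.40, 8.25 and 8.40 in mir-429 arrays and 8.50, 8.29 and 8.26 in control arrays, and at 144 h 7.58, 7.64 and 7.48 against 7.79, 7.90 and 7.53, overlapping at both times. CCNG1, a cyclin that helps recruit a phosphatase to MDM2, lay at 11.59 in each of the mir-429 arrays at 24 h, against 11.17, 11.26 and 11.11 in control arrays. The groups did not overlap (0.41 ± 0.08, adjusted p = 0.00118), and at 48 and 144 h the differences were 0.06 ± 0.08 and 0.02 ± 0.08. MDM2 differed by 0.03 ± 0.11, 0.16 ± 0.11 and 0.18 ± 0.11 at 24, 48 and 144 h (adjusted p = 0.854, 0.337 and 0.401). Its 9 probe sets above the filter disagreed, with changes between -0.42 and 0.22 at 24 h and between -0.79 and 0.45 at 48 h.

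Of the 7 arrest genes measured, CDKN1A was higher at the later times, PLK2, FBXW7 and ZMAT3 were higher at 24 h, and CCNG2 was lower at 24 and 48 h. CDKN1A encodes p21, the cyclin-dependent kinase inhibitor through which p53 halts division. Its log2 values at 24 h were 12.15, 12.32 and 12.26 in mir-429 arrays and 12.06, 11.96 and 12.11 in control arrays, which was not called (0.20 ± 0.12, adjusted p = 0.257). At 48 h they were 11.42, 11.65 and 11.69 in mir-429 arrays, against 10.89, 10.57 and 11.20 in control arrays. At 144 h they were 12.17, 11.97 and 12.08, against 11.53, 11.43 and 11.46 in control arrays. The groups did not overlap at any time, and the later changes were 0.70 ± 0.12 (adjusted p = 0.000526) at 48 h and 0.60 ± 0.12 (adjusted p = 0.00693) at 144 h. The 48 h call was lost when only the arrays compared entered the fit (adjusted p = 0.0668). In control cells p21 mRNA lay below its untransfected level at 48 h (-0.60 ± 0.12, adjusted p = 0.000476), and mir-429 cells differed from untransfected cells by 0.09 ± 0.12 (adjusted p = 0.542). The call in control cells was lost in the fit with the 3′ to 5′ covariate (adjusted p = 0.694).

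CCNG2, an unconventional cyclin linked to arrest, moved the other way. Its values were 7.44, 7.30 and 7.24 in mir-429 arrays at 24 h, against 8.21, 8.25 and 8.24 in control arrays. At 48 h they were 8.05, 8.32 and 8.47 in mir-429 arrays, against 9.41, 9.03 and 9.31 in control arrays. All mir-429 arrays lay below all control arrays at both times, with changes of -0.91 ± 0.12 (adjusted p = 3.15e-05) and -0.97 ± 0.12 (adjusted p = 1.18e-05). Both of its probe sets above the filter gave negative changes at both times, and the mean of all 5 was -0.38 at 24 h (adjusted p = 0.0255). By 144 h the values were 9.59, 9.44 and 9.76 in mir-429 arrays and 9.40, 9.53 and 9.37 in control arrays, which overlapped (0.16 ± 0.12, adjusted p = 0.502).

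PLK2, a polo-like kinase that restrains entry into mitosis after stress, had 11.88, 11.98 and 11.98 in mir-429 arrays at 24 h, against 11.21, 11.43 and 11.24 in control arrays. The groups did not overlap, and the change of 0.66 ± 0.11 (adjusted p = 0.000215) kept its call with the 3′ to 5′ covariate. FBXW7, the ligase receptor for cyclin E and MYC, lay at 10.28, 10.01 and 9.95 in mir-429 arrays and 9.69, 10.00 and 9.23 in control arrays at 24 h. Those groups overlapped (0.44 ± 0.15, adjusted p = 0.0365), and the call was lost without control replicate 1 or 3 or mir-429 replicate 1 or 2 (adjusted p = 0.057 to 0.247) and with the mean of its probe sets (0.13, adjusted p = 0.546). ZMAT3, an RNA-binding zinc finger protein, lay at 10.999, 10.78 and 10.79 in mir-429 arrays and 10.49, 10.79 and 10.12 in control arrays, again with overlap (0.39 ± 0.14, adjusted p = 0.041). Its call was lost without control replicate 1 or 3 or any mir-429 replicate (adjusted p = 0.0571 to 0.264). The stress sensor GADD45A and the kinase PLK3 were not called, GADD45A differing by -0.17 ± 0.08, -0.23 ± 0.08 and 0.06 ± 0.08 at the successive times (adjusted p = 0.152, 0.062 and 0.791) and PLK3 by 0.15 ± 0.14, -0.14 ± 0.14 and -0.11 ± 0.14.

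**Figure D3:**
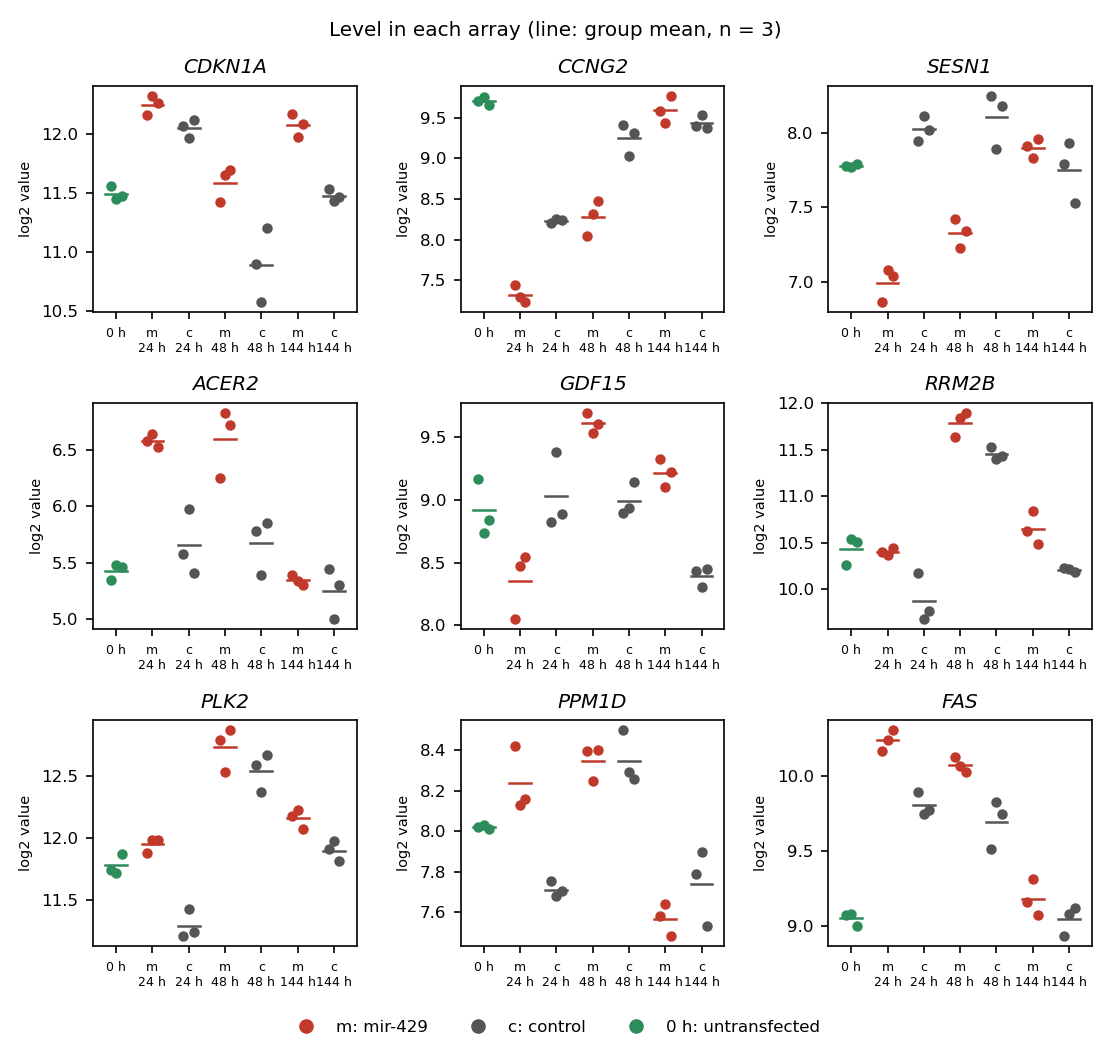
Log2 RMA value of 9 p53 target genes in every array, by group, with points for arrays and lines for group means. CDKN1A and GDF15 stand higher in mir-429 than in control cells at 48 and 144 h, while CCNG2 and SESN1 stand lower at 24 and 48 h.

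Of the 4 DNA repair genes, RRM2B was higher at 24 and 144 h and POLH at 48 h. RRM2B, the ribonucleotide reductase subunit that supplies deoxynucleotides outside S phase, had 10.40, 10.37 and 10.45 in mir-429 arrays at 24 h, against 10.17, 9.68 and 9.77 in control arrays. No array overlapped (0.53 ± 0.12, adjusted p = 0.00394). At 144 h its values were 10.63, 10.84 and 10.49, against 10.23, 10.21 and 10.19 in control arrays (0.44 ± 0.12, adjusted p = 0.0413), and the call was lost without any control replicate or mir-429 replicate 1 or 2 (adjusted p = 0.0961 to 0.193). At 48 h, values of 11.64, 11.85 and 11.89 in mir-429 arrays against 11.53, 11.40 and 11.44 in control arrays missed the threshold (0.33 ± 0.12, adjusted p = 0.0641), although the groups did not overlap. POLH, the polymerase that copies past ultraviolet lesions, lay at 8.27, 8.22 and 8.26 in mir-429 arrays at 48 h, against 7.62, 7.70 and 7.60 in control arrays. The difference of 0.61 ± 0.13 (adjusted p = 0.00256) was called, and its 5 probe sets above the filter all gave a positive change. At 144 h the POLH difference was 0.43 ± 0.13 (adjusted p = 0.0637). The same probe sets then ran from -0.17 to 0.43, and only 1 of the others shared the sign of the brightest. XPC and DDB2, which recognise damage for nucleotide excision repair, were not called at any time. XPC differed by -0.02, 0.11 and 0.04 (each ± 0.13), and DDB2 by -0.07, 0.24 and 0.31 (each ± 0.12), at 24, 48 and 144 h.

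The death receptor FAS, which triggers caspases when bound by its ligand, was higher in mir-429 cells at 24 and 48 h. At 24 h its values were 10.17, 10.24 and 10.31 in mir-429 arrays, against 9.89, 9.75 and 9.78 in control arrays. At 48 h they were 10.13, 10.07 and 10.03, against 9.52, 9.83 and 9.75 in control arrays. The groups were apart at both times, with changes of 0.43 ± 0.10 (adjusted p = 0.00272) and 0.38 ± 0.10 (adjusted p = 0.00846), and all 5 probe sets were higher at 24 h. The 48 h call was lost when only the arrays compared entered the fit (adjusted p = 0.136), and at 144 h the difference was 0.14 ± 0.10. TNFRSF10A, a receptor for the death ligand TRAIL, was called at 48 h, with 9.90, 9.79 and 9.81 in mir-429 arrays against 9.31, 9.39 and 9.28 in control arrays (0.51 ± 0.16, adjusted p = 0.0298). That call was lost without control replicate 1 or 3 or any mir-429 replicate (adjusted p = 0.0569 to 0.083). It was also lost with the mean of its probe sets and with array weights (adjusted p = 0.0752 to 0.157). The changes of its 3 probe sets ran from 0.13 to 0.51 at 48 h and from 0.07 to 1.00 at 24 h. TNFRSF10B, the other TRAIL receptor of the list, differed by 0.12 ± 0.09, 0.16 ± 0.09 and 0.05 ± 0.09 and was not called. Its 4 probe sets above the filter disagreed, with changes between -0.61 and 0.12 at 24 h and between -1.20 and 0.16 at 48 h. At 144 h the changes ran from -1.09 to 0.18, and the lowest at each time came from the dimmest probe set.

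Of the 6 other genes of death and survival, AEN and TRIAP1 were higher at 24 h, CYFIP2 and PHLDA3 were lower, and EI24 and TP53INP1 were not called. AEN, a nuclease that promotes apoptosis, had 10.24, 10.27 and 10.21 in mir-429 arrays at 24 h, against 9.97, 9.95 and 9.96 in control arrays. At 48 h it had 9.54, 9.33 and 9.59, against 9.06, 9.27 and 9.28 in control arrays. The changes were 0.28 ± 0.09 at both times (adjusted p = 0.0244 and 0.0274), with no overlap. The 24 h call was lost without control replicate 1 or 3 or mir-429 replicate 1 or 2 (adjusted p = 0.0514 to 0.075), and the 48 h call without control replicate 1 or mir-429 replicate 1 or 3 (adjusted p = 0.0843 to 0.12). TRIAP1, an inhibitor of apoptosis in mitochondria, lay at 12.55, 12.25 and 12.36 in mir-429 arrays and 12.13, 12.09 and 12.00 in control arrays at 24 h (0.31 ± 0.09, adjusted p = 0.0147), and lost its call without control replicate 3 or mir-429 replicate 1 (adjusted p = 0.0684 to 0.0951). CYFIP2, a partner of the translation regulator FMRP, lay at 9.10, 9.27 and 9.22 in mir-429 arrays and 9.69, 9.55 and 9.80 in control arrays (-0.48 ± 0.13, adjusted p = 0.0112). Its call was lost without control replicate 3 or mir-429 replicate 1 (adjusted p = 0.0551 to 0.0591), and with the mean of its probe sets (-0.18, adjusted p = 0.294), the other of which differed by 0.12.

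PHLDA3, a repressor of the survival kinase AKT, had 7.38, 7.31 and 7.51 in mir-429 arrays at 24 h, against 7.996, 7.50 and 8.15 in control arrays. At 144 h it had 6.78, 6.90 and 6.84 in mir-429 arrays and 7.28, 7.50 and 7.29 in control arrays. It was called lower at both times, by -0.48 ± 0.14 (adjusted p = 0.0152) with an overlap and by -0.52 ± 0.14 (adjusted p = 0.0343) without one. Leaving out control replicate 1 or 3 or mir-429 replicate 1 or 2 ended the 24 h call (adjusted p = 0.0504 to 0.104), and leaving out any of the 6 arrays ended the 144 h call (adjusted p = 0.0622 to 0.163). Its other probe set differed by 0.19 at 144 h, and the mean of both was not called there (-0.16, adjusted p = 0.599) or at 24 h (-0.41, adjusted p = 0.0527). EI24, a protein of the endoplasmic reticulum, differed by -0.20, 0.08 and 0.01 (each ± 0.20), and TP53INP1, which takes part in autophagy, by 0.24, -0.46 and 0.14 (each ± 0.18; adjusted p = 0.0813 at 48 h).

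The metabolic and mitochondrial targets split. SESN1, a sestrin that restrains the growth regulator mTORC1, had 6.86, 7.08 and 7.04 in mir-429 arrays at 24 h, against 7.95, 8.12 and 8.02 in control arrays. At 48 h it had 7.42, 7.22 and 7.34, against 8.25, 7.90 and 8.19 in control arrays. At 144 h it had 7.92, 7.83 and 7.96, against 7.79, 7.93 and 7.53, which overlapped. The falls at 24 and 48 h were 1.03 ± 0.11 (adjusted p = 4.08e-06) and 0.78 ± 0.11 (adjusted p = 6.09e-05), and mir-429 arrays also lay below untransfected ones, by -0.79 ± 0.11 and -0.45 ± 0.11. The 48 h difference from untransfected cells was not called in the fit with the 3′ to 5′ covariate (adjusted p = 0.389). ACER2, a Golgi ceramidase, gave 6.58, 6.64 and 6.53 in mir-429 arrays at 24 h, against 5.58, 5.98 and 5.41 in control arrays. Its 48 h values were 6.25, 6.82 and 6.72, against 5.78, 5.39 and 5.85 in control arrays, and its 144 h values were 5.40, 5.34 and 5.31, against 5.45, 5.004 and 5.31. The changes were 0.93 ± 0.16 (adjusted p = 0.00049) and 0.92 ± 0.16 (adjusted p = 0.000526) at the earlier times, the largest rises of the list there, and 0.10 ± 0.16 at 144 h.

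TIGAR, a phosphatase that diverts glucose from glycolysis, lay at 10.13, 10.13 and 10.17 in mir-429 arrays and 9.99, 9.73 and 9.97 in control arrays at 24 h (0.25 ± 0.08, adjusted p = 0.0382). Its call was lost without control replicate 2 or any mir-429 replicate (adjusted p = 0.0765 to 0.14). TP53I3, an oxidoreductase, differed by -0.30, -0.14 and -0.31 (each ± 0.13), and SPATA18, which clears damaged mitochondria, by -0.02, 0.03 and -0.23 (each ± 0.10); neither was called.

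GDF15, a secreted stress cytokine, was the gene whose direction turned with time. At 24 h its values were 8.05, 8.48 and 8.54 in mir-429 arrays, against 8.82, 9.38 and 8.89 in control arrays. At 48 h they were 9.69, 9.54 and 9.61, against 8.90, 8.94 and 9.14 in control arrays. At 144 h they were 9.33, 9.10 and 9.22, against 8.44, 8.31 and 8.45 in control arrays. The groups did not overlap at any time, with mir-429 arrays below control arrays at 24 h and above them later, and the changes were -0.68 ± 0.15 (adjusted p = 0.00329), 0.62 ± 0.15 (adjusted p = 0.00744) and 0.82 ± 0.15 (adjusted p = 0.0035). Its 3 probe sets disagreed at the earlier times, with changes between -0.68 and 0.19 at 24 h and between -0.72 and 0.81 at 48 h, while all were positive at 144 h (0.11 to 0.84). With the mean of all its probe sets, neither the 24 h change (-0.37, adjusted p = 0.122) nor the 48 h change (0.24, adjusted p = 0.352) was called. The 24 h call was also lost in the fit with the 3′ to 5′ covariate (adjusted p = 0.216).

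The size of the difference between mir-429 and control cells was itself compared between times, in one model, in which 1.75% of all genes were called upward and 3.14% downward from 24 to 48 h, and 6.32% upward and 12.3% downward from 24 to 144 h. Between 24 and 48 h, 2 of the 29 genes were called, GDF15 (1.29 ± 0.22, adjusted p = 0.00405; 0.60 and adjusted p = 0.149 with the mean of its probe sets) and PPM1D (-0.52 ± 0.15, adjusted p = 0.0499). Between 24 and 144 h, 7 were called: the difference moved upward for GDF15 (1.50 ± 0.22, adjusted p = 0.000233), SESN1 (1.18 ± 0.16, adjusted p = 0.000121) and CCNG2 (1.07 ± 0.17, adjusted p = 0.000448). It moved downward for ACER2 (-0.83 ± 0.23, adjusted p = 0.0186), PPM1D (-0.70 ± 0.15, adjusted p = 0.00431), TRIAP1 (-0.52 ± 0.13, adjusted p = 0.00948) and CCNG1 (-0.39 ± 0.11, adjusted p = 0.0241). For SESN1, CCNG2, ACER2, PPM1D and CCNG1 the difference was thus called at 24 h and lay near 0 at 144 h, with PPM1D at -0.17 ± 0.11. The CDKN1A difference did not pass in either contrast (0.50 ± 0.17, adjusted p = 0.0911, and 0.40 ± 0.17, adjusted p = 0.119), so a smaller effect on it at 24 h was not shown. With the mean of all probe sets, the 24 to 144 h change was not called for CCNG2 (0.48, adjusted p = 0.0546) or PPM1D (-0.37, adjusted p = 0.0832), and that of GDF15 was 0.95 (adjusted p = 0.0103). The PPM1D call between 24 and 48 h was lost without 10 of the 12 arrays, left out in turn (adjusted p = 0.0551 to 0.139), and the count was 1 without control 24 h replicate 1 or 3, mir-429 24 h replicate 1 or 2 or any mir-429 48 h replicate, and 8 without control 24 h replicate 2. The fits with a count of 1 called 1.28% to 4.27% of all genes, and the fit with 8 called 15.3%. Replicate 3 of control cells at 24 h and replicate 1 of control cells at 144 h each decided the CCNG1 and ACER2 calls, and replicate 3 of mir-429 cells at 144 h that of CCNG1. Without them the adjusted p was 0.0617 to 0.0689 for CCNG1 and 0.0535 to 0.0588 for ACER2.

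Both transfected arms moved away from untransfected cells at 24 and 48 h. The comparisons share the untransfected arrays, so their values are set side by side. Against untransfected cells, mir-429 cells had 9 genes higher and 6 lower at 24 h, 14 and 10 at 48 h, and 4 and 2 at 144 h. Of all genes, 11.7% and 11.3% were called higher and lower at 24 h, 19.1% and 37.5% at 48 h, and 6.62% and 12.3% at 144 h. Control cells had 7 higher and 8 lower at 24 h, 11 and 9 at 48 h, and none at 144 h. At 144 h limma gave 6 genes an unadjusted p under 0.05. The fit with array weights called 9 there, beside 27.4% of all genes. The background in control cells was 18.3% higher and 19.8% lower at 24 h, 18.4% and 36.1% at 48 h, and 0.280% and 0.194% at 144 h. No 48 h call against untransfected cells remained with the 3′ to 5′ covariate, whose values at 48 h and in untransfected arrays do not overlap. That fit called 0.559% of all genes for mir-429 cells and 0.59% for control cells at 48 h, so the loss was not particular to the p53 target genes.

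**Figure D4:**
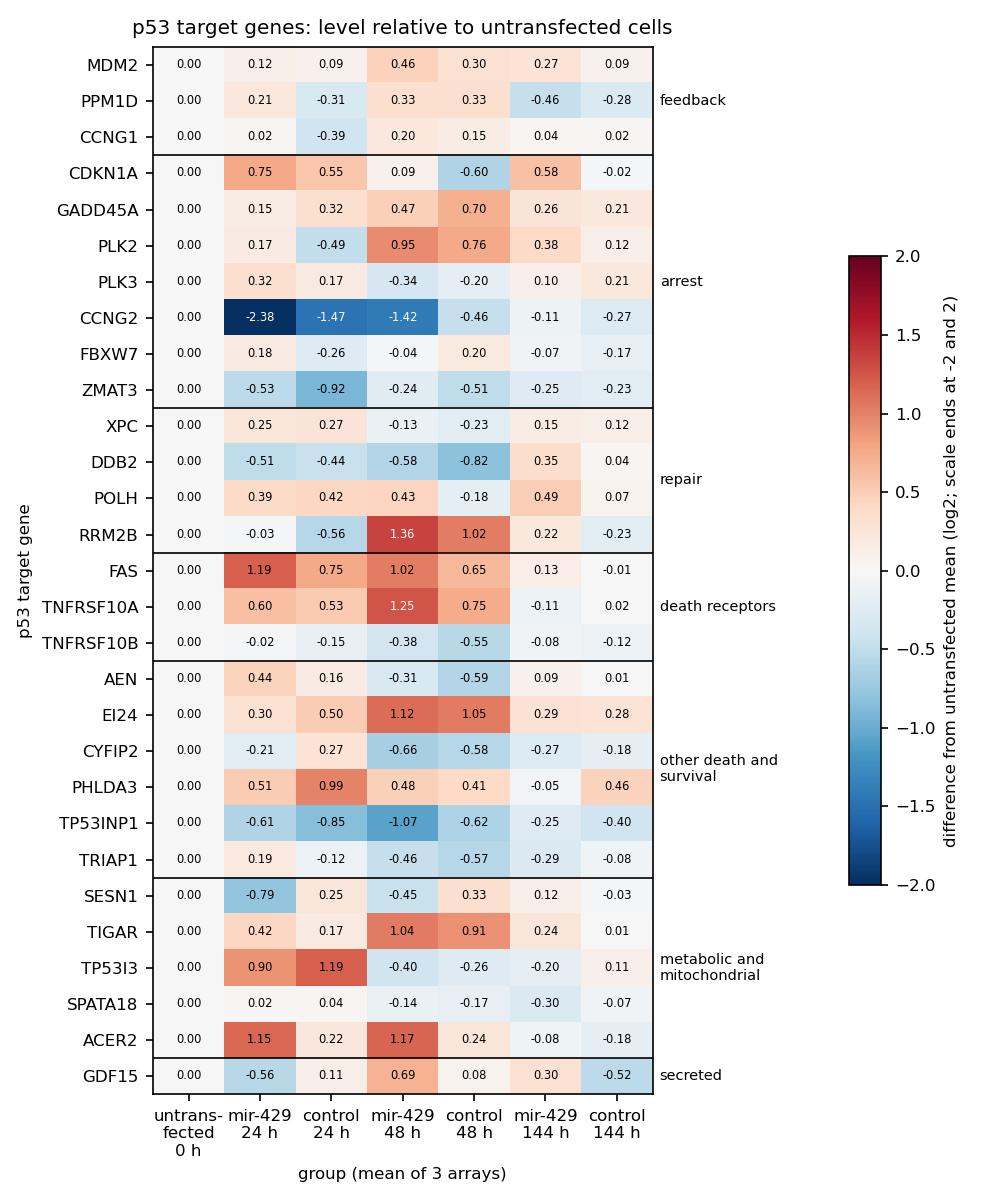
Mean log2 value of each of the 29 genes in the 7 groups, as the difference from untransfected cells at 0 h, with genes ordered by role. CCNG2 is lowest in mir-429 cells at 24 h, and RRM2B and EI24 (brightest probe set) lie more than 1 above the untransfected level at 48 h in both transfected arms.

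Of the genes called between the arms at 24 h, 4 were lower in control cells than in untransfected cells and were not called between mir-429 and untransfected cells (13.8% of the 29), beside 7.87% of all genes. The 3′ to 5′ difference had the same order: its control arrays at 24 h lay above all untransfected arrays, and its mir-429 arrays overlapped the untransfected ones. PPM1D differed from untransfected cells by 0.21 ± 0.11 in mir-429 cells (adjusted p = 0.16) and by -0.31 ± 0.11 in control cells (adjusted p = 0.0267). CCNG1 gave 0.02 ± 0.08 in mir-429 cells and -0.39 ± 0.08 in control cells (adjusted p = 0.00108). PLK2 gave 0.17 ± 0.11 in mir-429 cells and -0.49 ± 0.11 in control cells (adjusted p = 0.00164). RRM2B gave -0.03 ± 0.12 in mir-429 cells and -0.56 ± 0.12 in control cells (adjusted p = 0.00177). The PPM1D call in control cells was lost without any untransfected replicate or control replicate 2 or 3 (adjusted p = 0.0551 to 0.0696), with the mean of its probe sets (-0.13, adjusted p = 0.329) and with the covariate (adjusted p = 0.106). With the covariate the RRM2B call was lost too (adjusted p = 0.0599), while CCNG1 and PLK2 kept theirs (adjusted p = 0.0368 and 0.0291). FAS and CCNG2 moved the same way in both arms, further in mir-429 cells. FAS changed by 1.19 ± 0.10 in mir-429 cells (adjusted p = 9.26e-08) and by 0.76 ± 0.10 in control cells (adjusted p = 1.59e-05). The control change rests on the brightest of 5 probe sets, since the others gave 0.02 to 0.23 and the mean of all was not called (0.26, adjusted p = 0.127). CCNG2 changed by -2.38 ± 0.12 in mir-429 cells (adjusted p = 2e-10) and by -1.47 ± 0.12 in control cells (adjusted p = 1.87e-07). TP53I3 was higher in both arms at 24 h, by 0.90 ± 0.13 in mir-429 cells (adjusted p = 5.94e-05) and 1.19 ± 0.13 in control cells (adjusted p = 2.89e-06).

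At 48 h the genes called higher than in untransfected cells in both arms included RRM2B, TIGAR, PLK2 and EI24. None of the 48 h calls given here remained with the 3′ to 5′ covariate. RRM2B rose by 1.36 ± 0.12 in mir-429 cells (adjusted p = 8.23e-08) and 1.02 ± 0.12 in control cells (adjusted p = 2.52e-06). TIGAR rose by 1.04 ± 0.08 in mir-429 cells (adjusted p = 2.27e-08) and 0.91 ± 0.08 in control cells (adjusted p = 1.46e-07). TP53INP1 fell by 1.07 ± 0.18 in mir-429 cells (adjusted p = 6.64e-05) and by 0.62 ± 0.18 in control cells (adjusted p = 0.0076). With the mean of all probe sets, TP53INP1 was not called in mir-429 cells (-0.31, adjusted p = 0.0954). EI24 differed by 1.12 ± 0.20 in mir-429 cells and 1.05 ± 0.20 in control cells, but its other probe set went the opposite way (-0.32 and -0.14), and the mean of both was 0.40 and 0.45 (adjusted p = 0.0152 and 0.00749). DDB2 was lower in both, at -0.58 ± 0.12 in mir-429 cells and -0.82 ± 0.12 in control cells. At 144 h mir-429 cells had CDKN1A (0.58 ± 0.12, adjusted p = 0.00402), POLH (0.49 ± 0.13, adjusted p = 0.0147), PLK2 (0.38 ± 0.11, adjusted p = 0.0188) and GADD45A (0.26 ± 0.08, adjusted p = 0.0382) above untransfected cells, with PPM1D (-0.46 ± 0.11, adjusted p = 0.00711) and TRIAP1 (-0.29 ± 0.09, adjusted p = 0.0325) below them. That count of 6 was 2 without untransfected replicate 2, and 3 without untransfected replicate 3 or mir-429 replicate 2. These fits called 10.5%, 10.5% and 9.88% of all genes, in that order. Leaving out arrays in turn ended the call of GADD45A (all but mir-429 replicate 1, adjusted p = 0.0592 to 0.134), PLK2 (untransfected replicates 1 and 2 and mir-429 replicates 1 and 2, adjusted p = 0.0528 to 0.0754), TRIAP1 (untransfected replicates 2 and 3 and mir-429 replicates 1 and 2, adjusted p = 0.073 to 0.132) and POLH (untransfected replicates 2 and 3 and mir-429 replicate 3, adjusted p = 0.0634 to 0.0775). With the mean of all its probe sets, POLH turned to -0.17 (adjusted p = 0.396) and PPM1D was not called (-0.29, adjusted p = 0.0534).

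Other genes of the pathway came from lists that are not part of the 29, and their counts stand beside the all-gene shares of 15.0% higher and 11.6% lower at 24 h, 9.32% and 11.3% at 48 h, and 1.48% and 4.37% at 144 h. Of 21 tested regulators of p53, mir-429 cells had 1 higher and 3 lower at 24 h, 2 and 1 at 48 h, and 0 and 1 at 144 h. Called either way were 19.0% and 14.3% of them at 24 and 48 h, below the 26.6% and 20.6% of all genes. PML, the scaffold of nuclear bodies, fell by 0.84 ± 0.16 at 24 h (adjusted p = 0.000763), and the p53 cofactor PPP1R13B by 0.43 ± 0.11 (adjusted p = 0.00947). The PML partner DAXX fell by 0.59 ± 0.20 (adjusted p = 0.0387) and the damage kinase ATR rose by 0.29 ± 0.10 (adjusted p = 0.0435) at that time. The inhibitory cofactor PPP1R13L rose by 0.54 ± 0.13 at 48 h (adjusted p = 0.00563), and the p53 relative TP73 by 0.81 ± 0.23 (adjusted p = 0.0179), while the ubiquitin ligase COP1 fell by 0.45 ± 0.16 (adjusted p = 0.0481). The acetyltransferase CREBBP fell by 0.46 ± 0.12 at 144 h (adjusted p = 0.031). Of 35 further p53 targets, 9 were higher and 6 lower at 24 h, 8 and 5 at 48 h, and 0 and 1 at 144 h. TGFA, a growth factor, rose by 1.62 ± 0.14 at 24 h (adjusted p = 3.09e-07) and 1.67 ± 0.14 at 48 h (adjusted p = 1.17e-07). The lysosomal enzyme gene FUCA1 rose by 1.25 ± 0.15 and 0.98 ± 0.15 at the same times (adjusted p = 1.41e-05 and 0.000139), while IER5 fell by 0.73 ± 0.09 at 24 h (adjusted p = 1.27e-05) and the cytokine CSF1 by 1.27 ± 0.15 at 48 h (adjusted p = 9.93e-06). The transcription factor KLF4 rose by 0.84 ± 0.10 at 24 h (adjusted p = 1.55e-05). SFN, an arrest protein of the 14-3-3 family, rose by 0.97 ± 0.12 at 48 h (adjusted p = 1.52e-05). TP53AIP1 was called at 144 h (-0.86 ± 0.20, adjusted p = 0.0175), but its group means, 3.34 in mir-429 and 4.20 in control cells, both lay below the array medians.

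The genes that p21 lowers through the DREAM repressor complex were listed apart, and 3 of the 20 tested were higher and 2 lower at 24 h, 1 higher and 0 lower at 48 h, and 0 higher and 1 lower at 144 h. Called either way were 25% and 5% at 24 and 48 h, near and below the 26.6% and 20.6% of all genes, so these counts are no result about the list. BUB1 and BUB1B, checkpoint kinases of mitosis, rose by 0.42 ± 0.10 and 0.43 ± 0.11 at 24 h (adjusted p = 0.00419 and 0.00611), and MCM5, a subunit of the replication helicase, fell by 0.60 ± 0.15 (adjusted p = 0.00725). KIF23, a motor of cell division, rose by 0.52 ± 0.19 at that time (adjusted p = 0.0436). CCNB2, a mitotic cyclin, rose by 0.37 ± 0.08 at 48 h (adjusted p = 0.00358). At 144 h CDC25A, a phosphatase that advances the cycle, fell by 0.45 ± 0.09 (adjusted p = 0.00519).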

How the data were processed

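The authors' deposited table holds log2 expression values made by RMA from 21 HG-U133 Plus 2.0 arrays, per the submitters' processing notes; the software version is not given in the sources used here. Per the labels' protocols, RNA was extracted on columns and amplified and biotin labelled with a 3′ system. GEO's platform annotation gave 1 symbol to 41097 of 54675 probe sets, several to 1801 and none to 11777, and 99.9% of symbols were matched by Entrez identifier to a RefSeq table of GRCh38.p14. A gene was its brightest probe set by mean over all arrays, and was tested where it exceeded the median of its array on 3 arrays or more. limma 3.58.1 in R 4.3.3 fitted 7 group means (14 residual and 3.93 prior degrees of freedom), two-sided, with Benjamini-Hochberg adjustment over 12879 genes, for 11 comparisons. No further scaling was applied. The number of arrays limits the precision. The fit was tested on simulated data. Alternatives were quantile and cyclic loess scaling, no filter, the mean of probe sets, the 3′ to 5′ covariate, array weights, a replicate block, the compared arrays alone, leaving out each array, and, chosen after seeing the data, no 48 h arrays. All 31 listed genes are named, with array values for those called against control cells or between times. Members and lists were chosen with earlier results of these data known. Shared replicate numbers did not pair the arrays: correlations of same-numbered deviations ran from -0.13 to 0.28. Other genes of a list are named where they were among the 4 called with the smallest p in a comparison of mir-429 with control cells.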

Additional observations from a re-analysis of the deposited data

Results flagged for a closer look

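The difference between mir-429 and control cells changed between times for 7 of the 29 genes, each tested by the contrast of differences within the limma fit. From 24 to 144 h, 24.1% of the 29 were called, near the 18.6% of all genes. From 24 to 48 h it changed by -0.52 for PPM1D (log2) and by 1.29 for GDF15. From 24 to 144 h it changed by 1.50 for GDF15, 1.18 for SESN1, 1.07 for CCNG2, -0.83 for ACER2, -0.70 for PPM1D, -0.52 for TRIAP1 and -0.39 for CCNG1. GDF15 was the gene of these whose difference was called in both directions, lower in mir-429 cells at 24 h and higher at 48 and 144 h.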

How the results depend on the processing

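Counts of called p53 target genes kept within 1.5 times under most alternatives, and the exceptions follow, with the count of the fit reported above in brackets. With the 3′ to 5′ covariate, counts were 3 (16) for mir-429 against control cells at 24 h, 0 (20) and 0 (24) for control and mir-429 against untransfected cells at 48 h, and 0 (2) for the change from 24 to 48 h. For these last 3, limma gave 6, 8 and 3 at an unadjusted p under 0.05. The covariate fit called 4.77%, 0.59%, 0.559% and 0.0155% of all genes in these comparisons, in that order. With array weights, counts were 8 (4) for mir-429 against control cells at 144 h, 12 (6) and 9 (0) for mir-429 and control against untransfected cells at 144 h, and 13 (7) for the change from 24 to 144 h. The same fits called 17.5%, 39.2%, 27.4% and 33.2% of all genes, in that order. Fits of the compared arrays alone gave counts of 10 (16) for mir-429 against control at 24 h, 2 (0) for control against untransfected cells at 144 h and 1 (2) for the change from 24 to 48 h. They called 19.7%, 5.16% and 0.45% of all genes, in that order. Without the filter, counts were 2 (4) for mir-429 against control cells at 144 h and 1 (2) for the change from 24 to 48 h, beside 2.6% and 1.33% of all genes. For that same change, quantile scaling gave 1, beside 5.5% of all genes. The mean of probe sets gave 0 there, with 5 at an unadjusted p under 0.05 in limma, beside 2.68% of all genes called.

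Leaving out each array gave 9 to 17, 7 to 9 and 2 to 3 for mir-429 against control cells at 24, 48 and 144 h, 12 to 14, 22 to 23 and 2 to 4 for mir-429 against untransfected cells, 12 to 17, 17 to 19 and 0 to 0 for control against untransfected cells, and 1 to 8 and 5 to 9 for the changes from 24 to 48 and from 24 to 144 h. The shares of all genes called moved too. They were 16.7% to 31.3%, 16.4% to 20.3% and 2.53% to 5.12% for mir-429 against control cells. Against untransfected cells they were 16.3% to 20.5%, 49.6% to 52.5% and 9.88% to 14.1% for mir-429 cells. For control cells they were 27% to 40.8%, 47.2% to 53.4% and 0.194% to 0.481%. For the changes they were 1.28% to 15.3% and 11.6% to 24.3%. The replicate block, on numbers that did not pair the arrays, gave 15, 9 and 3 for mir-429 against control cells, beside 26.1%, 20% and 5.57% of all genes. Without the 48 h arrays, an alternative chosen after seeing the data, the 24 and 144 h counts were 16 and 5, beside 32% and 9.01% of all genes. No direction reversed between mir-429 and control cells or between times for a called gene. Against untransfected cells, the mean of all probe sets reversed POLH in control cells at 24 h (-0.0373), PPM1D (-0.065), PHLDA3 (-0.12) and GDF15 (-0.41) in control cells at 48 h, GDF15 in mir-429 cells at 48 h (-0.17) and POLH in mir-429 cells at 144 h (-0.17). The 3′ to 5′ covariate reversed MDM2 (-0.30), PHLDA3 (-0.45) and SESN1 (-0.0449) in control cells at 48 h, and MDM2 (-0.24), POLH (-1.19), AEN (0.0354), PHLDA3 (-0.51) and TP53I3 (0.048) in mir-429 cells at 48 h. The causes were not tested. Cyclic loess moved the median of all genes from -0.18 to -0.07 for mir-429 and from -0.16 to -0.06 for control against untransfected cells at 48 h. The share of calls that were higher between mir-429 and control cells at 144 h was 43.8% with cyclic loess and 37.0% with quantile scaling, against 25.3% as reported.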
